A study of Mus musculus with 7 samples.

Results

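The clustered protocadherins were taken as the protein-coding genes of GENCODE M21 (mm10) whose symbol begins with Pcdha, Pcdhb or Pcdhg and ends in a number. The rule gave 57 members of 21938 protein-coding genes, 14 alpha, 22 beta and 21 gamma, all on the plus strand of chromosome 18 between 36930184 and 37841873. Of these, 5 were C-type members (Pcdhac1, Pcdhac2, Pcdhgc3, Pcdhgc4 and Pcdhgc5) and 52 were alternate members. The annotation gives the symbol Pcdha11 to 2 members, ENSMUSG00000007440 and ENSMUSG00000102206, and Pcdhgb8 was not a member because it is annotated there as a polymorphic pseudogene.

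HPC7 cells, a mouse line of hematopoietic progenitor type grown in stem cell factor and serum, were the sole group here, with no other genotype or treatment in the labels. Bulk ATAC-seq, in which the Tn5 transposase cuts accessible DNA, was performed on 7 libraries from separate culture batches, numbered 1, 2 and 4 to 8. The authors called open chromatin regions (OCRs) in each library separately. A single line cannot stand for hematopoietic progenitors in general, and in bulk data an OCR open in few cells or on 1 allele and an OCR weakly open in all cells cannot be told apart.

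Clustered protocadherins are cell surface adhesion proteins known best from neurons, where each cell switches on a small, partly random set of alternate members and so acquires a surface identity. Every member has its own variable exon and its own promoter; alpha and gamma variable exons are spliced to constant exons shared within their subcluster, whereas beta genes have no shared exon. CTCF and cohesin are known to bring chosen promoters to distant enhancers, DNA methylation and SMCHD1 are known to keep others silent, and C-type members are used more constitutively than alternate members.

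The lists held between 84593 and 132852 OCRs. Fold enrichment, called intensity here, is the number of reads at the summit plus 1, divided by the background of that library plus 1, and this background ran from 4.44 reads in library 2 to 20.4 reads in library 1. A member had an OCR when a peak overlapped 1 kb on either side of its annotated 5′ end, which is the start of its variable exon. The closest member starts lay 4131 bp apart, so no peak was counted for 2 members. Of 9 hematopoietic progenitor genes, 8 had an OCR at the start in 7 of 7 libraries, and Gata2 had one in 7 of 7 when any transcript start was used. Over all protein-coding genes, 51.6% had one in 7 of 7 libraries, and 55.9% when any transcript start was used. Of the defining genes of other cell types, 1 of 7 neuronal (Snap25), 1 of 6 fibroblast (Col1a1) and 0 of 5 epithelial genes had an OCR in 7 of 7 libraries, and 2, 2 and 0 when any transcript start was used. Their summed intensity per library ran from 10.3 to 94.7 over the neuronal list, from 12.5 to 22.3 over the fibroblast list and was 0 over the epithelial list, against 581 to 1053 over the hematopoietic list. The neuronal range followed Tubb3, which reached 79.5 in library 8 and had no OCR in libraries 4, 5 and 7, and its part in the results on the members was not tested.

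Most members had no OCR at the start. An OCR was listed in 7 of 7 libraries for 8 members (14.0%), against 51.6% of all protein-coding genes, and in at least 1 library for 18 members, against 57.1% of all genes. At least 4 libraries listed one for 13 members, against 53.8% of all genes. The remaining 39 members had none in any library. In between, 10 members had an OCR in 1 to 6 libraries, a class that held 5.44% of all genes. The 8 members were Pcdhb15, Pcdhb16, Pcdhga1, Pcdhgb7, Pcdhga12, Pcdhgc3, Pcdhgc4 and Pcdhgc5, and their median mean intensity was 10.8, against 80.1 over all genes with an OCR in 7 of 7 libraries.

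**Figure D1:**
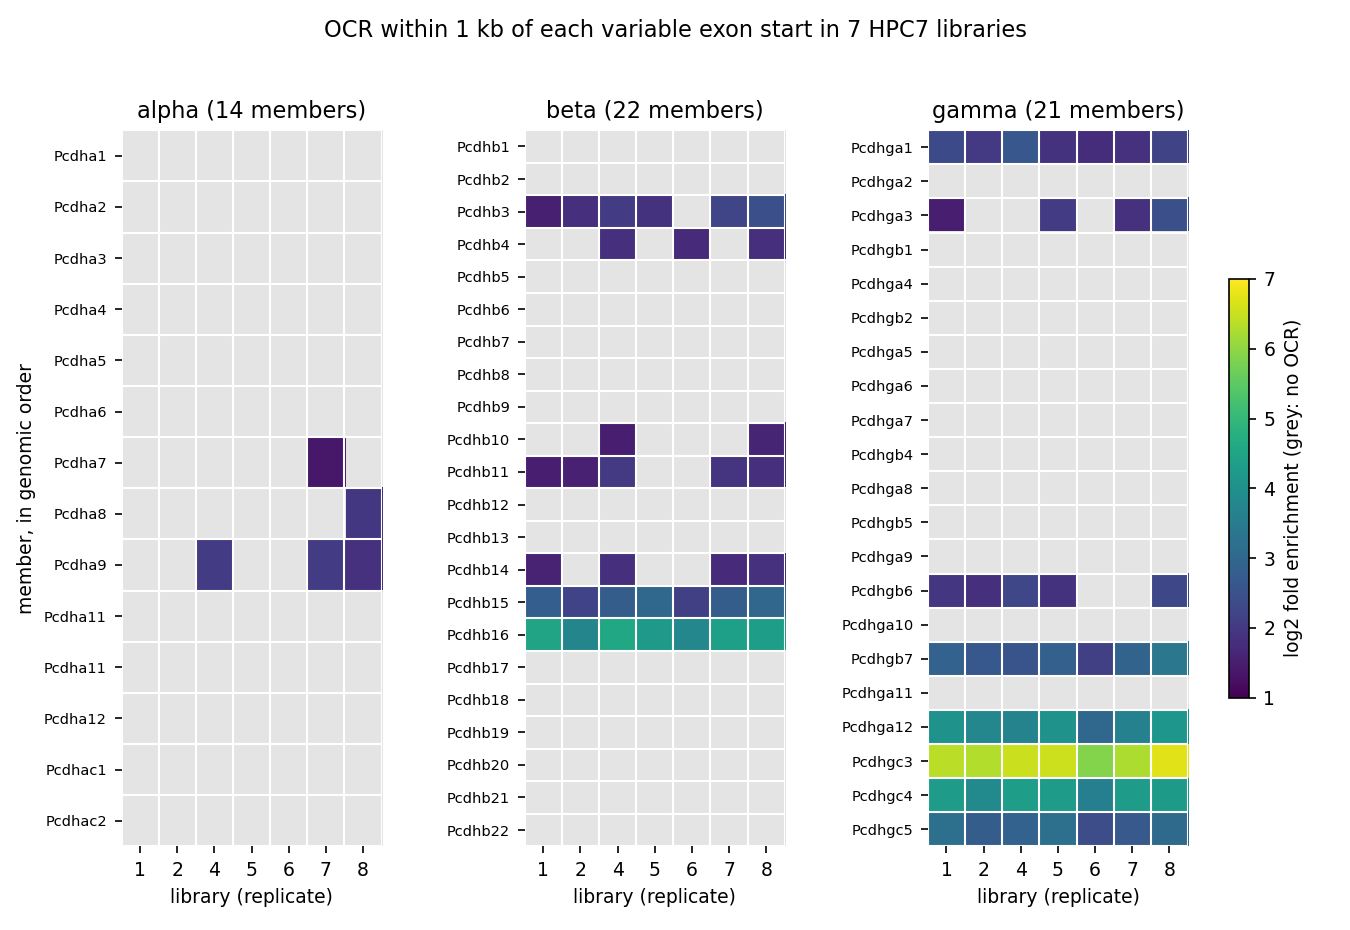
Each cell is a member (in genomic order, 3 panels for the subclusters) in a library (columns, replicate numbers), coloured by log2 fold enrichment of the highest OCR within 1 kb of the start, and grey where no OCR was listed. Filled cells cover 0 to 2 of 14 alpha members per library, 3 to 7 of 22 beta members and 6 to 8 of 21 gamma members, and Pcdhgc3 is the brightest in each library.

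Pcdhgc3 (ENSMUSG00000102918), a C-type gamma member, had the most intense OCR of the family. Its intensity was 59.4 at the lowest, 83.5 at the median and 107 at the highest, a mean of 84.7 ± 15.1 (SD, n = 7), from 379 to 1784 reads at the summit. This placed it between the 92.7 and 96.1 percentile of the OCRs of a library, where the percentile is the share of OCRs of lower intensity. No other member came near it, since the lowest library of Pcdhgc3 exceeded the highest library of the next member. The merged OCR ran from 37805810 to 37807262 and overlapped the 5′ end and coding part of the variable exon, and its median summit lay 47 bp before the start. The OCR also overlapped an exon of another annotated gene, BC037039, so its intensity cannot be assigned to Pcdhgc3 alone.

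The other gamma C-type members were lower. Pcdhgc4 (ENSMUSG00000023036) reached 12, 19.5 and 20.2 at the lowest, the median and the highest library, with a mean of 17.9 ± 3.20 (SD, n = 7). Its median summit lay 178 bp into the variable exon, before the start codon at 454 bp. Pcdhgc5 (ENSMUSG00000102543) reached 5.32, 7.34 and 9.36, with a mean of 7.56 ± 1.51 (SD, n = 7). A separate OCR in 7 of 7 libraries, from 37818031 to 37818519, lay before Pcdhgc5 and had a mean intensity of 4.52 ± 1.15 (SD, n = 7). The alpha C-type members differed from the gamma ones in these lists, since neither Pcdhac1 nor Pcdhac2 had an OCR in any library.

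Among alternate gamma members, Pcdhga12 (ENSMUSG00000102428), the last before the C-type exons, had intensities of 7.98, 13.8 and 17.9 at the lowest, the median and the highest library, with a mean of 14.0 ± 3.41 (SD, n = 7). Its summit lay 314 bp after the annotated start at the median and between 281 and 353 bp over the libraries. This was the farthest from the start among the 8 members with an OCR in each library. The annotated start of Pcdhga12 lies 537 bp before its start codon, against a median of 163 bp over the members. The summit thus lay before the start codon, and its distance depends on the annotated start. Pcdhgb7 (ENSMUSG00000104063) had 4.38, 7.13 and 10.3, with a mean of 7.0 ± 1.84 (SD, n = 7). Pcdhga1 (ENSMUSG00000103144), the first gamma exon, had 3.44, 4.04 and 6.15, with a mean of 4.38 ± 0.979 (SD, n = 7). These 3 were the sole alternate gamma members with an OCR in 7 of 7 libraries. The Pcdhga1 OCR also overlapped an exon of another annotated gene, 3222401L13Rik. Pcdhgb6 had one in 5 libraries (none in libraries 6 and 7), up to 4.95, and Pcdhga3 in 4 libraries (1, 5, 7 and 8), up to 5.53. The 10 neighbouring members from Pcdhgb1 to Pcdhga9 had no OCR in any library.

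Among beta members, Pcdhb16 (ENSMUSG00000047910) stood above the rest. Its intensity was 13.2 at the lowest, 20.5 at the median and 23.7 at the highest, a mean of 19.1 ± 4.12 (SD, n = 7), between the 69.1 and 83.0 percentile. Its neighbour Pcdhb15 (ENSMUSG00000047033) had 4.38, 6.86 and 8.18, with a mean of 6.51 ± 1.48 (SD, n = 7). No library of Pcdhb15 reached the lowest library of Pcdhb16. Pcdhb3 had an OCR in 6 libraries (none in library 6), from 2.90 to 5.53 where listed. Pcdhb11 had one in 5 libraries (none in libraries 5 and 6), up to 4.02, and Pcdhb14 in 4 libraries (1, 4, 7 and 8), up to 3.64. Pcdhb4 was listed in libraries 4, 6 and 8 and Pcdhb10 in libraries 4 and 8. The 15 beta members without any OCR formed 4 runs of neighbours, the longest from Pcdhb17 to Pcdhb22 (6 members).

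Alpha members had the fewest OCRs. Pcdha9 was listed in libraries 4, 7 and 8, between 3.64 and 4.22, from 24 to 34 reads at the summit. Pcdha7 was listed in library 7 alone at 2.62 and Pcdha8 in library 8 alone at 3.93, from 17 and 26 reads. The 3 members are neighbours, and the other 11 alpha members had no OCR in any library.

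The order of the 8 members was not resolved at each step. Pcdhb16 exceeded Pcdhgc4 in 5 of 7 libraries, by 1.19 ± 1.77 (SD), Pcdhgc5 exceeded Pcdhgb7 in 5 of 7, by 0.558 ± 1.54 (SD), and Pcdhgb7 exceeded Pcdhb15 in 4 of 7, by 0.483 ± 1.29 (SD). These 3 differences were smaller than their SD over the libraries. At the other steps, from Pcdhgc3 to Pcdhb16, from Pcdhgc4 to Pcdhga12, from Pcdhga12 to Pcdhgc5 and from Pcdhb15 to Pcdhga1, the higher member was higher in 7 of 7 libraries. Library 6 gave the lowest value for 7 of the 8 members, and it also had the lowest median intensity over all genes with an OCR, 55.5 against 68.2 to 92.6 in the other libraries.

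The 3 subclusters were compared within each library by an exact sign-flip permutation test (two-sided, 7 libraries, smallest possible p = 0.0156). The test asks whether a difference recurs over culture batches of this line, for these fixed sets of genes. The spread between genes within a set is not measured by it. The share of members with an OCR was 5.10% ± 6.79 in alpha, 22.1% ± 7.62 in beta and 34.7% ± 3.60 in gamma (SD, n = 7). Alpha was lower than beta in 7 of 7 libraries, with differences from -24.7 to -8.44 percentage points (mean -17.0 ± 5.62, exact permutation, adjusted p = 0.0156). Alpha was lower than gamma in 7 of 7, by a mean difference of -29.6 ± 7.26 percentage points (exact permutation, adjusted p = 0.0156). Beta was lower than gamma in 7 of 7, with differences from -24.5 to -1.52 percentage points (mean -12.6 ± 7.38, exact permutation, adjusted p = 0.0156). Without the C-type members, alpha minus gamma came to -17.9 ± 8.46 percentage points (7 of 7 libraries, exact permutation, adjusted p = 0.0234). The difference between beta and gamma did not pass the test among alternate members alone. There the share was 22.1% ± 7.62 in beta and 23.8% ± 4.2 in gamma, with a mean difference of -1.73 ± 7.51 percentage points, beta lower in 4 of 7 libraries (exact permutation, p = 0.609).

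Mean log2 intensity over the members of a subcluster, with members without an OCR set to a fold of 1, followed the same order. It was 0.10 ± 0.13 in alpha, 0.55 ± 0.17 in beta and 1.17 ± 0.15 in gamma (SD, n = 7). The differences on the log2 scale were -0.45 ± 0.10 for alpha minus beta, -1.08 ± 0.16 for alpha minus gamma and -0.62 ± 0.14 for beta minus gamma, each of the same sign in 7 of 7 libraries (exact permutation, adjusted p = 0.0156 for each). With members without an OCR set to the lowest fold in the list of the library, alpha minus beta was -0.27 ± 0.071 (exact permutation, adjusted p = 0.0156). Among alternate members alone, alpha minus gamma was -0.51 ± 0.16 on the log2 scale (7 of 7 libraries, exact permutation, adjusted p = 0.0234). There the difference on the log2 scale between beta and gamma was -0.075 ± 0.14, and it was negative in 5 of 7 libraries (exact permutation, p = 0.172).

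Peak names in the lists begin with VD in libraries 1, 2 and 4 and with EtOH in libraries 5 to 8. The labels do not say what these prefixes mean, and within them only means are given because 3 and 4 libraries cannot go below p = 0.25 and 0.125 in this exact permutation test. Alpha minus beta was -21.9 and -13.3 percentage points within VD and EtOH, alpha minus gamma was -32.5 and -27.4, and beta minus gamma was -10.7 and -14.1. On the log2 scale of intensity, the same 3 differences were -0.52, -1.14 and -0.61 within VD, and -0.40, -1.03 and -0.63 within EtOH.

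The C-type members split by subcluster. In gamma, 3 of 3 C-type members had an OCR at the start in each library, against 23.8% ± 4.2 of 18 alternate members, and in alpha 0 of 2 had one, against 5.95% ± 7.93 of 12 alternate members (SD, n = 7); these differences within a subcluster were not tested. Over both subclusters the C-type share was 60.0% in each library, from gamma alone, and it was 19% ± 5.26 over the 52 alternate members. The difference was 41.0 ± 5.26 percentage points and positive in 7 of 7 libraries (exact permutation, adjusted p = 0.0156). Within the prefixes VD and EtOH it was 40.8 and 41.2.

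**Figure D2:**
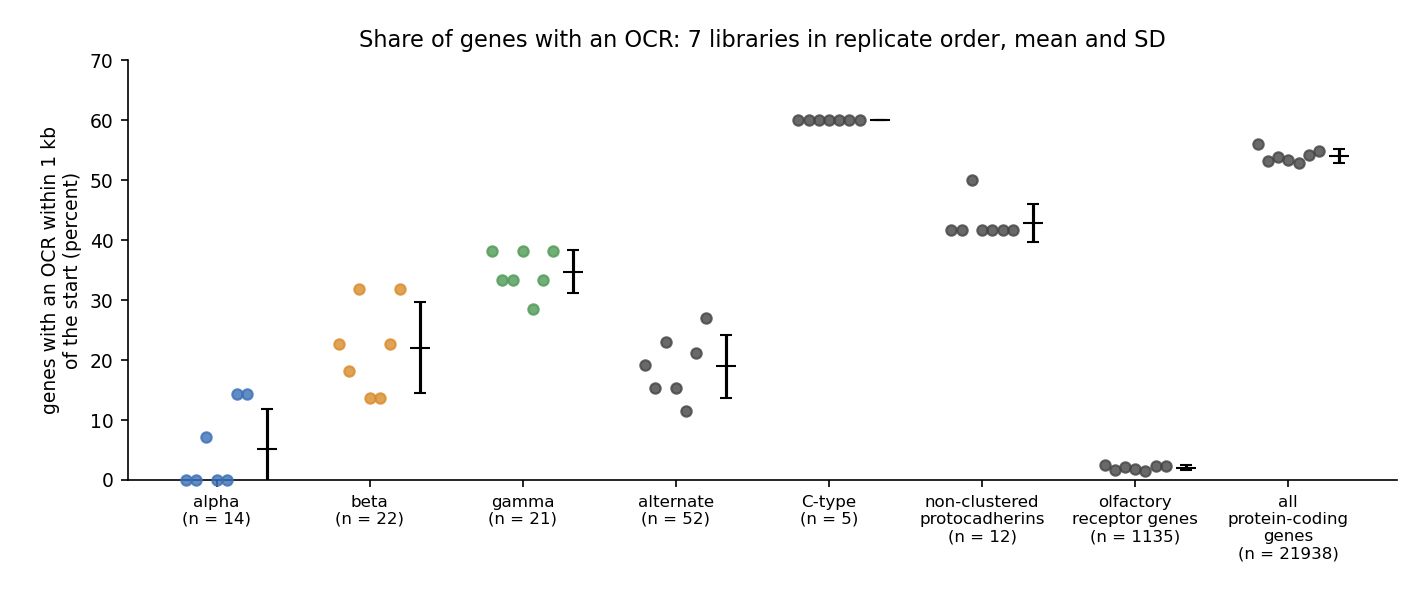
Points are the percent of genes with an OCR within 1 kb of the start in each of 7 libraries, in replicate order, for the subclusters, the alternate and C-type members and 3 reference sets, and the bars to the right are the mean and SD. Alpha lies lowest among the subclusters, C-type members sit at 60% in each library, and the alternate members lie between olfactory receptor genes and all protein-coding genes.

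Over all 57 members the share was 22.6% ± 4.80, against 54.0% ± 1.14 over all protein-coding genes, a difference of -31.4 ± 4.23 percentage points (SD, lower in 7 of 7 libraries, exact permutation, adjusted p = 0.0156). Within VD and EtOH the difference was -31.5 and -31.4. Olfactory receptor genes, another large clustered family of which a cell expresses few members, had an OCR in 2.04% ± 0.399 of 1135 genes. The clustered protocadherins exceeded them by 20.5 ± 4.50 percentage points in 7 of 7 libraries (exact permutation, adjusted p = 0.0156), and by 20.7 and 20.4 within VD and EtOH.

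The 12 non-clustered protocadherins, related adhesion genes that each have their own locus, had an OCR in 42.9% ± 3.15, so that the clustered members were lower by a mean difference of -20.3 ± 4.74 percentage points (7 of 7 libraries, exact permutation, adjusted p = 0.0156). Within VD and EtOH it was -21.6 and -19.3. The size and the direction depended on what was called the start. The difference was -10.8 with a 500 bp window or with the summit within 1 kb, and -34.1 with a 3 kb window. At the first base of the coding sequence, 16.7% of the non-clustered and 22.6% ± 4.80 of the clustered protocadherins had an OCR, and the difference was 5.89 ± 4.80, positive in 6 of 7 libraries (exact permutation, adjusted p = 0.0312). Of the non-clustered protocadherins, Pcdh7 (148 ± 30.1), Pcdh17 (29.5 ± 7.87), Pcdh19 (24.8 ± 5.88), Pcdh1 (13.3 ± 3.62) and Pcdh18 (4.70 ± 1.37) had an OCR at the annotated 5′ end in 7 of 7 libraries (mean intensity ± SD), Pcdh15 had one in 1 library and 6 had none.

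Along the chromosome, the OCRs of the cluster formed islands between long stretches without any. Merging OCRs that overlapped between libraries by at least 1 bp gave 37 regions between 1 kb before the first start and the end of the cluster (912.69 kb), of which 17 were in 7 of 7 libraries. Of the 37, 20 lay at a member start and 17 elsewhere. The density was 2.97 ± 0.488 OCRs per 100 kb in the cluster and 11.0 ± 1.41 in the 200 kb on either side (SD, n = 7), a difference of -8.03 ± 1.01 that was negative in 7 of 7 libraries (exact permutation, p = 0.0156, family of 1). Within VD and EtOH it was -8.22 and -7.88. By subcluster, the density per 100 kb was 0.276 ± 0.368 in alpha, 3.24 ± 0.659 in beta and 8.68 ± 1.59 in gamma. The gamma density exceeded that of the 200 kb before the cluster (6.79 ± 0.906) and was below that of the 200 kb after it (15.2 ± 2.06), differences that were not tested.

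**Figure D3:**
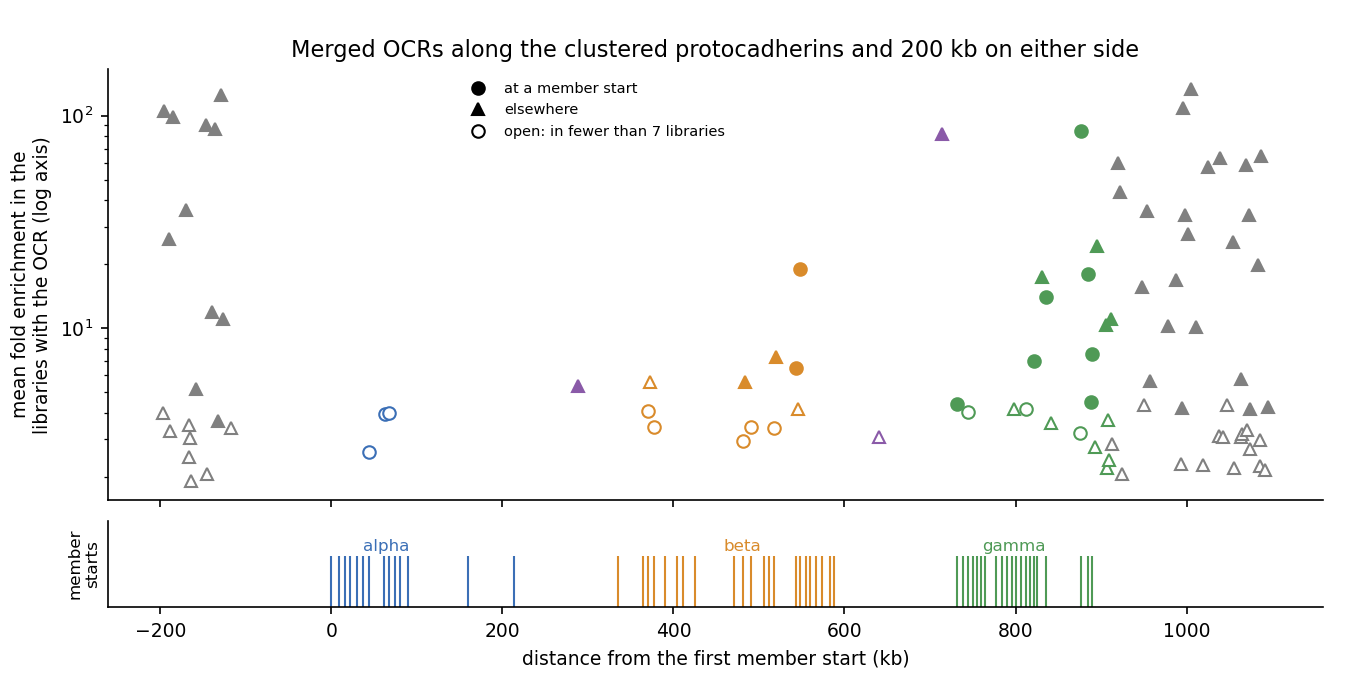
Merged OCRs are placed by their distance in kb from the first member start, with the mean fold enrichment over the libraries that list them on a log axis; circles lie at a member start, triangles elsewhere, open symbols are in fewer than 7 libraries, and ticks underneath mark the 57 member starts. Alpha (blue) holds 3 OCRs, none in 7 of 7 libraries, the beta OCRs (orange) stay below 20, and the gamma OCRs (green) gather at the C-type end, with Pcdhgc3 at 84.7.

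The longest stretch between OCRs found in 7 of 7 libraries ran from 36803486 to 37218178 (415 kb) and held the starts of all 14 alpha members. Further stretches of this kind ran from 37218561 to 37413848 (195 kb, 10 beta starts), from 37478688 to 37643210 (165 kb, 6 beta starts) and from 37661936 to 37751404 (89.5 kb, 14 gamma starts). No library listed any OCR from 36998371 to 37218178 (220 kb, 5 starts, Pcdhac1 and Pcdhac2 among them) or from 36813533 to 36974226 (161 kb, 7 starts). Genes next to the cluster contrasted with this. Of the 13 protein-coding genes starting in the 200 kb on either side, 12 had an OCR in 7 of 7 libraries. The share over all protein-coding genes was 51.6%. The highest in the flanks were Diaph1 (134 ± 21.8), Tmco6 (105 ± 16.2), Ndufa2 and Ik, which share an OCR (98.3 ± 22.1), and Hars and Hars2, which share another (90.1 ± 20.5). Dnd1 was listed in 2 libraries.

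Away from member starts, 8 OCRs were in 7 of 7 libraries. The most intense (37643210 to 37644914, 81.6 ± 15.4) lay at the promoter of Taf7, a subunit gene of the general transcription factor TFIID that sits between beta and gamma. Its range over the libraries overlapped that of Pcdhgc3. An OCR from 37761159 to 37762061 (17.5 ± 3.27) lay at the start of Pcdhgb8 and had a mean within 2 units of fold enrichment of those of Pcdhb16 and Pcdhgc4. At the gamma end, 3 OCRs had mean intensities of 24.4 ± 5.65 (37823401 to 37826398), 10.4 ± 2.42 (37835430 to 37837080) and 11.1 ± 1.83 (37839768 to 37842273). The first of these overlapped coding sequence shared by the gamma genes, with its summit 5521 bp after the start of Pcdhgc5, and the last overlapped the 3′ end of the gamma genes. The sole OCR between alpha and beta (37218178 to 37218561, 5.36 ± 1.32) had its summit 30.7 kb after the end of the alpha genes. Of the other protein-coding starts inside the cluster, Slc25a2 and 3 gene models that extend from alpha into gamma (Gm42416, Gm37013 and Gm37388) had no OCR in any library.

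The remaining OCRs in 7 of 7 libraries lay inside coding sequence of beta members, with summits 2402 bp after the start of Pcdhb10 (37413848 to 37414257, 5.56 ± 0.668) and 2402 bp after that of Pcdhb14 (37449516 to 37450224, 7.32 ± 1.45). At these members the exonic OCR was more widely listed than the OCR at the start, which was found in 2 libraries for Pcdhb10 and in 4 for Pcdhb14. Pcdhb3 had an exonic OCR at 2381 bp in 6 libraries, with intensities from 5.10 to 6.26 where listed, and Pcdhb15 had one at 2221 bp in 5 libraries, from 3.67 to 4.81. In gamma, Pcdhga8, which had no OCR at the start, had one at 2257 bp in 5 libraries, from 3.31 to 4.96.

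Matches to the CTCF core consensus, searched on both strands of GRCm38 (mm10), were compared with these positions. This comparison was chosen after the exonic OCRs were seen, and a match is a sequence feature only. The search used a short consensus pattern without mismatches, so sites that depart from the pattern were not counted. A member without a match may therefore still hold a CTCF site. No member had a match between 250 bp before and 50 bp after the start, a window that held one in 0.556% of all genes. Between the start and 4 kb into the gene, 6 of 14 alpha and 13 of 22 beta members had a match, against 2.68% of all genes, and 0 of 21 gamma members did. The alpha matches lay between 543 and 587 bp after the start and the beta matches between 2277 and 2816 bp, with medians of 573 and 2393 bp. Of the 13 beta matches, 4 lay inside an exonic OCR (Pcdhb3, Pcdhb10, Pcdhb14 and Pcdhb15) and 9 in no OCR. In Pcdhb3, Pcdhb10 and Pcdhb14 the middle of the match lay 15, 16 and -9 bp from the summit. In Pcdhb15 the match lay outside the 100 bp around the summit. In alpha, the matches of Pcdha7 and Pcdha8 lay inside the OCRs listed in library 7 and library 8, and the other 4 in none. Of the 37 OCRs of the cluster, 5 (13.5%) had a match within 100 bp of the summit, namely the exonic OCRs of Pcdhb3, Pcdhb10 and Pcdhb14, which prompted the search, and those of Pcdha7 and Pcdha8, listed in 1 library each. The share was 6.90% over the OCRs of the flanks, 5.99% over OCRs in 7 of 7 libraries genome-wide and 4.12% over 144931 merged OCRs.

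**Figure D4:**
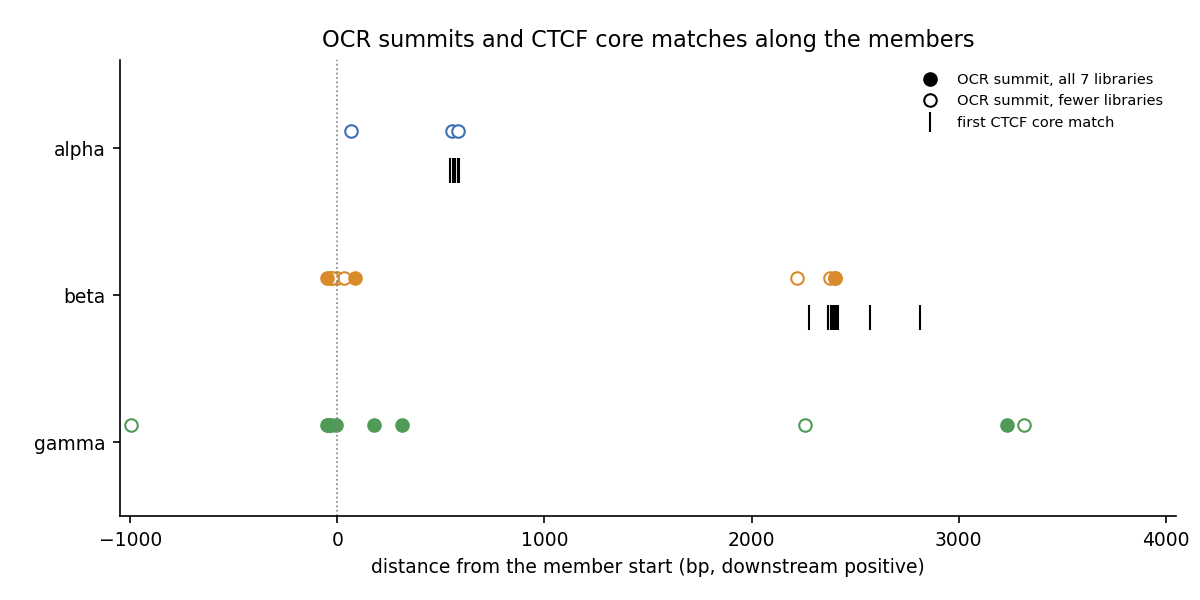
Circles are OCR summits and black ticks the first CTCF core match, by distance in bp from the member start, for the 3 subclusters; filled circles are OCRs in 7 of 7 libraries. Summits gather at the start in beta and gamma, and in beta again near 2.4 kb, where ticks also gather, whereas gamma has no tick; the gamma symbols beyond 3 kb belong to the OCR before Pcdhgc5 and to 1 OCR after it.

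Summits at the start were close to it. Of the 18 members with an OCR, 15 had a median summit within 250 bp of the start, and 9 had it upstream. The median G and C content was 39.7% over the members in the window from 250 bp before to 50 bp after the start, 55.0% over all genes and 37.7% over olfactory receptor genes, and the 5 C-type members had a median of 54.7%. CpG observed over expected in this window had a median of 0.521 over the members, close to 0.525 over all genes and above 0.0884 over olfactory receptor genes. By subcluster the median was 0.638 in alpha, 0.427 in beta and 0.540 in gamma, so alpha had the highest CpG ratio and the fewest OCRs. Over the 57 members, CpG ratio and mean intensity had a Spearman rho of -0.196 (0.474 within 14 alpha, -0.055 within 22 beta and -0.349 within 21 gamma members), which is a description across genes that share libraries and sequence ancestry. Members with an OCR in 7 of 7 libraries had a median ratio of 0.449, and those without any 0.558. Pcdhga12, whose annotated start lies 537 bp before its start codon, had no CpG in the window.

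Members resemble one another in sequence, and reads that fit several places can be lost or split in alignment. Sequences of 100 bp found more than once in the cluster and its flanks covered 0 to 9.41% of the 2 kb around the start in alpha (median 3.52%), 0 to 2.94% in beta and 0 to 1.95% in gamma (median 0 in both). Such sequence was present at 5 of 18 members with an OCR (up to 5.42%) and at 17 of 39 without (up to 9.41%), with a median of 0 in both. They were most frequent at the 2 members named Pcdha11, with 9.41% and 9.04%. The share was higher in alpha, and its part in the result was not tested.

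Most genes known to shape or silence the cluster had an OCR at their own annotated starts. Of 15 such genes, 12 had an OCR at the annotated 5′ end in 7 of 7 libraries, where 51.6% of all genes had one, among them Ctcf (135 ± 20.2), the cohesin subunit Rad21 (127 ± 19), Smchd1 (211 ± 38.6), the histone methyltransferase Setdb1 (65.1 ± 17.0) and the DNA methyltransferase Dnmt3b (46.7 ± 8.09, mean intensity ± SD, n = 7). Trim28 and Stag1 had none there and Dnmt1 had one in library 1. With any transcript start, 15 of 15 had an OCR in 7 of 7 libraries, against 55.9% of all genes.

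The lists differed in length and in the members they held. The number of members with an OCR was 13 in library 1 (where 56.1% of all genes had one), 11 in library 2 (53.1%), 15 in library 4 (53.8%), 11 in library 5 (53.3%), 9 in library 6 (52.8%), 14 in library 7 (54.1%) and 17 in library 8 (54.8%). Against the number of OCRs listed, Pearson's r was 0.695 (exact permutation p = 0.0849) and Spearman's rho 0.739 (exact permutation p = 0.0706) over 7 libraries, in a family of 1 relation. Without libraries 1 and 8, the farthest from the median length, r was 0.928 (exact permutation p = 0.05) and rho 0.872 (exact permutation p = 0.0667). With 1 library left out, r was 0.945 without library 1 (exact permutation p = 0.00833), 0.537 without library 6 (exact permutation p = 0.278) and between 0.580 and 0.762 without any of the others (exact permutation p from 0.0806 to 0.225). Library 1, with the longest list, held fewer members than libraries 4, 7 and 8. Within the prefixes, 3 and 4 libraries are too few for this relation. The 10 members listed in 1 to 6 libraries reached an intensity of at most 5.53.

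**Figure D5:**
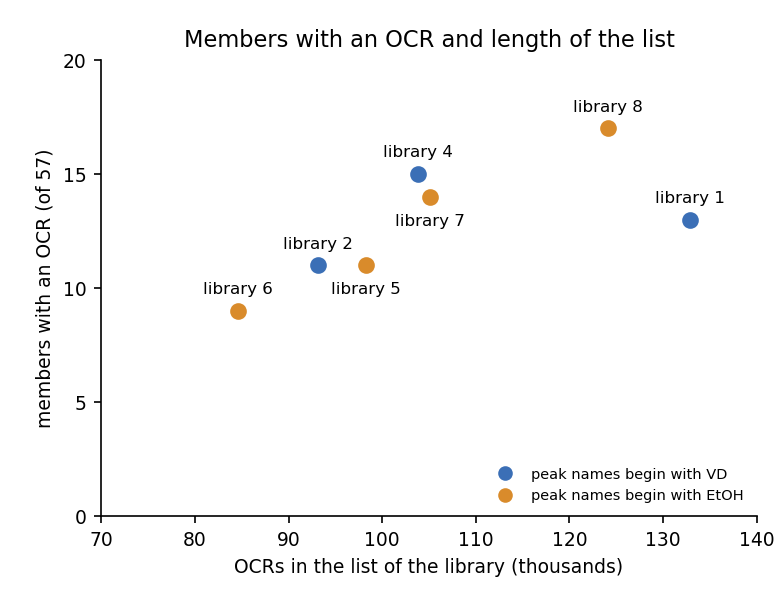
Each point is a library, by the OCRs in its list and its number of members with an OCR of 57, coloured by the prefix of its peak names. The count runs from 9 in library 6 to 17 in library 8, and library 1 has the longest list with 13 members.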

How the data were processed

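Adapters were removed by the authors with Cutadapt, reads were placed on mm10 with BWA-mem, and the deposited lists were called with MACS2 per library (a list called on combined reads was not used here); versions and options are not given in the sources used here. The deposited lists give per peak a score, a fold enrichment (a ratio over the background), a −log10 p, a −log10 q and a summit offset. Normalization between libraries is not given in the sources used here. Fold enrichments in 100% of cases were whole multiples of 1 step per library (tolerance 0.02 reads), which gave reads at the summit and 1 background per library, so no local background entered. The lowest listed peaks had 12 to 35 reads; weaker signal is not in the lists, and depth in read pairs was not used.

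Starts were annotated 5′ ends in GENCODE M21, matched to GRCm38.p6. For each gene the highest fold enrichment of a peak overlapping 1 kb on either side was taken. The replicate was the library. Differences within libraries were tested by an exact sign-flip permutation test (128 patterns, two-sided, threshold 0.05), with Benjamini-Hochberg adjustment over 3 shares, 3 intensities and 4 reference comparisons; the functions were tested on simulated data.

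Members and lists were chosen with earlier results of these data known. Named were members with an OCR in at least 4 libraries (at most 12, by mean intensity), all C-type members, those with an OCR in 1 to 3 libraries, the 8 most intense OCRs elsewhere and the flanking genes with the 5 highest values. Pcdhb14, the exonic OCRs of Pcdhb3, Pcdhb15 and Pcdhga8, and the OCR before Pcdhgc5 were named after their values were seen. Alternatives were other windows (500 bp, 3 kb, summit only), the start of the coding sequence, −log10 q of at least 5, equal list lengths, covered base pairs, another value for members without an OCR, leaving out each library, and, added after seeing the data, any transcript start and alternate members only. Tools were pandas 2.3.3, numpy 2.4.6, pysam 0.24.0 and matplotlib 3.10.9 under Python 3.11.15.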

Additional observations from a re-analysis of the deposited data

Results flagged for a closer look

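Of 51 measures examined over the 7 libraries, 4 had a library that stood apart from the others by Dixon's criterion, and chance alone gives about 1 in 20. For Pcdha7 and Pcdha8 the criterion is met whenever a single library lists an OCR, so these 2 say no more than that and are not to be set against chance. The difference in OCR density between the cluster and its flanks was -10.1 OCRs per 100 kb in library 1, the library with the longest list and the highest background, against -8.38 in the next library. The intensity at Pcdha7 was 2.62 in library 7 and no OCR was listed in the others. The intensity at Pcdha8 was 3.93 in library 8 and no OCR was listed in the others. The exonic OCR of Pcdhb14 (37449516 to 37450224) had an intensity of 4.22 in library 6, which also had the lowest median intensity over all genes, against 7.35 in the next library.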

How the results depend on the processing

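Of 172 alternative values with a test, 167 kept their direction and their side of the threshold. With 500 bp or the summit within 1 kb, the subcluster and C-type differences equalled the main values. The same held with the start of the coding sequence and with any transcript start. Where all 7 libraries had the same sign, leaving out 1 library fixed the sign and the p in advance. The tally is therefore not a measure of robustness. In this tally the relation to list length was judged by Pearson's r. The 22 means within the prefixes VD and EtOH kept their sign, and the count of members with an OCR in each library lay between 7 and 10 over 14 alternatives. With the start of the coding sequence, the clustered minus non-clustered difference turned to 5.89 percentage points (it was -10.8 with 500 bp or the summit within 1 kb and -34.1 with 3 kb), because the share of the non-clustered genes fell to 16.7%. Among alternate members only, the beta minus gamma difference was -1.73 percentage points and -0.075 on the log2 scale of intensity, neither past the threshold, and alpha minus gamma -17.9 and -0.51, both past it; this alternative leaves out 3 gamma and 2 alpha members. The relation of members with an OCR to OCRs listed had r = 0.784 with a 3 kb window (exact permutation p = 0.0361), and between 0.537 and 0.945 when 1 library was left out, the highest without library 1. With −log10 q of at least 5, Spearman's rho passed the threshold (0.782, exact permutation p = 0.0444) and r did not (0.736, exact permutation p = 0.054). Leaving out 1 library gave 8 to 9 members with an OCR in each remaining library, and the subcluster, reference and density differences kept their sign at an exact permutation p of 0.0312, the smallest that 6 libraries allow. With members without an OCR set to the lowest fold in the list, alpha minus beta was -0.27 on the log2 scale. No paired analysis was possible because the 7 libraries form 1 group, so no replicate numbers pair groups of samples; the differences between gene sets were already taken within each library. A member without a listed OCR may still have signal under the threshold of its library, and in library 6, with the shortest list, fewer weak OCRs were listed.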
